A study of Mus musculus with 10 samples.

Results

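The adrenal cortex and steroid synthesis genes are 10 genes chosen for their function: Star, Cyp11a1, Cyp11b1, Cyp17a1, Cyp21a1, Hsd3b1, Nr5a1, Nr0b1, Mc2r and Scarb1. They were found by the exact gene symbol of the array's annotation, which gave 18 of 45037 probe sets, and they are 10 of 18193 named genes. All 10 were measured. RNA came from urogenital systems of mouse embryos at embryonic day 15.5, with 1 to 2 systems in each pool and 5 distinct pools for each genotype. Homozygous pools are Wnt9bcneo/cneo, with the cneo form of Wnt9b at both copies of the gene. Control pools are Wnt9bcneo/+ by their genotype label, so they carry the cneo allele once, whereas their titles call them wild type. Wnt9b encodes a secreted ligand of the ureteric bud. The labels do not give the effect of the allele on its transcript, which lay at 6.92 to 7.16 (log2) in control pools and 5.58 to 7.65 in homozygous pools, so that it cannot check the genotype. The study set these genotypes side by side, and here they are compared for the steroid genes.

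Steroid hormones are made from cholesterol. Scarb1 takes cholesterol into the cell, Star carries it into mitochondria, and Cyp11a1 cuts its side chain to give pregnenolone. Hsd3b1 then makes progesterone, Cyp21a1 and Cyp11b1 turn this into corticosterone in the adrenal cortex, and Cyp17a1 opens the route to androgens. In the fetal mouse the adrenal cortex and the Leydig cells of the testis descend from a common primordium, and both use Star, Cyp11a1 and Hsd3b1. The last steps to corticosterone are mainly those of the adrenal cortex, while Cyp17a1 is a hallmark of fetal Leydig cells, and neither is exclusive. Nr5a1 is the nuclear receptor that switches on most of these enzymes, Nr0b1 is its partner and repressor, and Mc2r is the receptor for the pituitary hormone ACTH.

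In the GRCm38.p6 gene table, Star is at chromosome 8, 25808474 to 25815982, Scarb1 at chromosome 5, 125277087 to 125341094, Cyp11a1 at chromosome 9, 57998024 to 58027031 and Hsd3b1 at chromosome 3, 98842356 to 98859794. Cyp17a1 is at chromosome 19, 46667165 to 46673000, Cyp21a1 at chromosome 17, 34801348 to 34804426 and Cyp11b1 at chromosome 15, 74834892 to 74841643. Nr5a1 is at chromosome 2, 38692656 to 38714542 and Nr0b1 at chromosome X, 86191775 to 86195947. RefSeq promoter sequence matched 3 of the 10 genes, with 2 start sites for Cyp11a1. The 250 bases before the start site are shown because these genes were high or low in largely the same pools, as given below. Each is printed 5′ to 3′ in the direction of transcription, and capitals mark the letters AGGTCA on either strand, the core that nuclear receptors of the Nr5a1 kind bind.
Nr0b1 promoter, chrX:86191525-86191774, + strand: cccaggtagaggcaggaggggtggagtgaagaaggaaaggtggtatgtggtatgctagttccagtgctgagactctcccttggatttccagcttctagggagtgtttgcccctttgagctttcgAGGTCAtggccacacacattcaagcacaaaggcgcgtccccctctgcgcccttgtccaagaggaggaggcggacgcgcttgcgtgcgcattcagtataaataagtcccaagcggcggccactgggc
Cyp11a1 promoter, chr9:58014702-58014951, + strand: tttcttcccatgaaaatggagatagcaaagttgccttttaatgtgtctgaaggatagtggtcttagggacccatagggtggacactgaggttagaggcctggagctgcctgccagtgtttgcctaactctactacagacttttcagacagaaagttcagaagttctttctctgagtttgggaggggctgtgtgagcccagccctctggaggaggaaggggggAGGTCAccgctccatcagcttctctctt
Hsd3b1 promoter, chr3:98859795-98860044, - strand: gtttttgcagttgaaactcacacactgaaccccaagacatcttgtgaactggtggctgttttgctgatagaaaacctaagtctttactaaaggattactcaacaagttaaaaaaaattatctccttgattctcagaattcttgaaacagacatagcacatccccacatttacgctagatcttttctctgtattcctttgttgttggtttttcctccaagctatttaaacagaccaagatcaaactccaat
The core begins 126 bases before the Nr0b1 start and 28 bases before the Cyp11a1 start shown. It was absent from the Hsd3b1 window and from that of the other Cyp11a1 start. AGGTCA or its complement TGACCT occurred in 14.0% of all 32851 promoter windows of this length, and this core was chosen after the sequences were read. The longer forms CAAGGNCA and AAGGNCA, which overlap each other, were in none of the 4 windows and in 5.53% and 17.5% of all windows on either strand. A match of letters is a description and not a measured binding site.

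Values are the authors' intensities, scaled so that each array has the same trimmed mean of 500, and values below 16 were set to 16 before log2 was taken. Differences are homozygous minus control on the log2 scale, tested with limma over all genes. Samples differed in ways that touch these genes. Homozygous pools 3, 4 and 5 had a high Xist level, 13.75 to 14.27 (log2), and the remaining 7 had 6.07 at most, and the Y-linked genes had the reverse pattern. The actin ratio of 3' over middle signal, which rises as RNA breaks down, reached 97.7 in homozygous pool 5 and 94.8 in control pool 1, and it was 9.87 to 33.1 elsewhere. Of the kidney genes read, Six2, a nephron progenitor factor, was at 1452 to 6884 over the 10 pools, whereas Cited1, another progenitor gene, was at 4.65 to 232. In control pools 1 and 2, Nr5a1 was at 10.7 and 5.97, Cyp21a1 at 7.03 and 22.9 and Cyp11b1 at 19.3 and 33.0, all at 33.0 or below, whereas Mc2r was at 222 and 98.6 and Star at 81.7 and 73.7. In tissue of this kind fewer cells of a type and less RNA per cell cannot be told apart.

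No gene of this group differed between the genotypes beyond the spread of the pools. Of the 10 genes, 0 passed an adjusted p of 0.05 in limma, where 0.967% of all genes passed (0.539% higher and 0.429% lower in homozygous pools), and 1 (Nr0b1) had an unadjusted p under 0.05. All 10 differences were positive, against 53.9% of all genes, with a median of 1.41 against 0 over all genes. The 10 genes share the same pools, so their signs are not independent of each other. The pools of the genotypes overlapped for every one of the 10, whereas in 2.61% of all genes every homozygous pool lay above every control pool. Their spread among pools of 1 genotype was wide. The median SD among control pools was 2.47 (log2) over the 10 genes and 0.29 over all genes, and among homozygous pools it was 1.42 and 0.34. A wide spread was not particular to these genes. For the mean of the 10 genes the SD among control pools was 2.40. For the means of the lists described below it was 2.76 for skeletal muscle, 1.98 for testis and 0.28 for kidney genes.

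**Figure D1:**
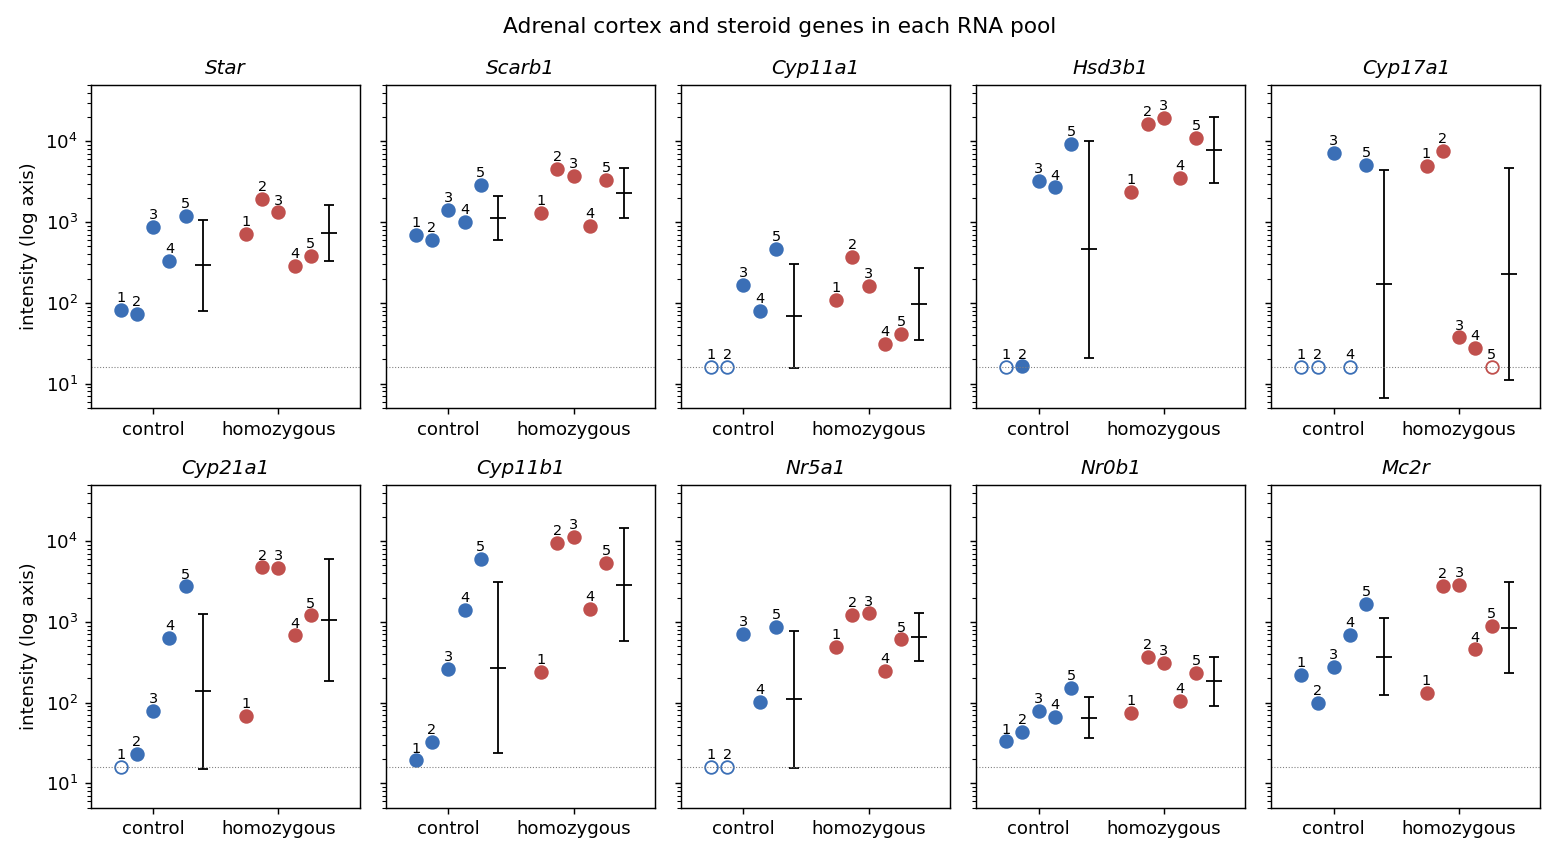
Intensity of each gene (log axis) in each RNA pool, at its brightest probe set, by genotype, with the pool number above each point. Open points are at or below the floor of 16 (dotted line), and black bars are the mean ± SD of log2 values (n = 5). Control pools 1 and 2 are at or near the floor for Cyp11a1, Hsd3b1 and Nr5a1, and Cyp17a1 is at 5002 or above in 4 pools and at 37.4 or below in the other 6.

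Cholesterol supply genes were measured in all pools. Star, which is required for cholesterol entry into mitochondria, had intensities of 81.7, 73.7, 880.3, 329.9 and 1192 in control pools 1 to 5 and 717, 1945, 1322, 289 and 385 in homozygous pools 1 to 5. Control pools 1 and 2 were the lowest of the 10, and control pool 5 and homozygous pools 2 and 3 the highest. Its mean log2 was 8.18 ± 1.87 (SD, n = 5) in control pools and 9.51 ± 1.16 (SD, n = 5) in homozygous pools, a difference of 1.32 ± 0.93 (SE, log2) with an adjusted p of 0.553 in limma. The other probe sets of Star showed the same order at the extremes. One read 4.44 and 1.97 in control pools 1 and 2 and 2806 in homozygous pool 2, with a difference of 2.68 ± 1.44. The other differed by 2.00 ± 1.23, and neither passed the threshold. In homozygous pool 5, the array with the highest actin ratio, they read 1069 and 538, against 385 at the brightest probe set. Scarb1, the receptor for high-density lipoprotein, had intensities of 698, 601, 1429, 997 and 2897 in control pools 1 to 5 and 1289, 4532, 3699, 893 and 3319 in homozygous pools 1 to 5. Its lowest value was still 601, so that it never approached the floor, and 3 homozygous pools lay above the highest control pool. Scarb1 is also expressed outside steroid tissue. Its difference was 1.04 ± 0.58 (SE, log2), adjusted p = 0.448 in limma. The probe set of Scarb1 that ends in a_at read 432 in homozygous pool 5, the array with the highest actin ratio, where the other probe sets read 2517 and 3319, and it differed by 0.50 ± 0.86 between genotypes. The part of RNA integrity in these readings of Star and Scarb1 was not tested.

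The enzymes that open the pathway were both lowest in control pools 1 and 2 and parted in other pools. In homozygous pool 5, Cyp11a1 was at 41.1 and Hsd3b1 at 10917. Cyp11a1, the side-chain cleavage enzyme, had intensities of 2.39, 1.44, 166, 79.9 and 468 in control pools 1 to 5 and 109.8, 374, 164, 31.0 and 41.1 in homozygous pools 1 to 5. It was below the floor in control pools 1 and 2 and highest in control pool 5. Its difference was 0.49 ± 1.09 (SE, log2), adjusted p = 0.878 in limma, and it came to -0.00092 without homozygous pool 2 and to -0.043 without control pool 1 or control pool 2. A further pair of Cyp11a1 probe sets stayed below 50 on every array. Hsd3b1, the dehydrogenase that makes progesterone, had intensities of 7.67, 16.3, 3215, 2692 and 9255 in control pools 1 to 5 and 2373, 16284, 19714, 3503 and 10917 in homozygous pools 1 to 5. In 8 pools it was at 2373 or above, and in control pools 1 and 2 it was at or beside the floor. Its mean log2 was 8.85 ± 4.47 (SD, n = 5) in control pools and 12.93 ± 1.36 (SD, n = 5) in homozygous pools. The difference of 4.08 ± 1.97 (SE, log2) was the largest of the 10 and did not pass (adjusted p = 0.364 in limma), and 3 homozygous pools exceeded all controls. Hsd3b1 has a cluster of paralogs on the same chromosome, and cross-hybridization between them was not tested.

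Cyp17a1, the enzyme that leads to androgens, was either very high or near absent. Its intensities were 4.69, 9.65, 7162, 3.83 and 5055 in control pools 1 to 5 and 5002, 7579, 37.4, 27.7 and 6.75 in homozygous pools 1 to 5. It was high in control pools 3 and 5 and homozygous pools 1 and 2, that is, in 2 pools of each genotype, and near the floor in the other 6. Its mean log2 was 7.42 ± 4.69 (SD, n = 5) in control pools and 7.84 ± 4.36 (SD, n = 5) in homozygous pools, a difference of 0.42 ± 2.70 (SE, log2), adjusted p = 0.985 in limma. The difference was 5.17 ± 3.23 without the 3 pools of high Xist (adjusted p = 0.684) and 5.55 ± 2.94 with the Xist level as a covariate (adjusted p = 0.649), and it turned negative without homozygous pool 1 (-0.70) or homozygous pool 2 (-0.85) and without control pool 1, 2 or 4 (-0.44 each). The 6 pools low for Cyp17a1 were the 3 of high Xist and control pools 1, 2 and 4, whose Y-linked mean was 9.89 to 10.31 (log2). No control pool had a high Xist level, so Xist level and genotype were partly confounded. The part of embryo sex in the Cyp17a1 level was not tested.

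The final adrenal steps had a different order of pools. Cyp21a1, the 21-hydroxylase, had intensities of 7.03, 22.9, 79.3, 638 and 2742 in control pools 1 to 5 and 68.9, 4725, 4661, 679 and 1201 in homozygous pools 1 to 5. Cyp11b1, the 11-beta-hydroxylase that completes corticosterone, had intensities of 19.3, 33.0, 259, 1414 and 6080.1 in control pools 1 to 5 and 242, 9423, 11379.7, 1451 and 5407 in homozygous pools 1 to 5. For both genes homozygous pools 2 and 3 were highest, followed by control pool 5 and homozygous pool 5, while control pools 1 to 3 and homozygous pool 1 were lowest. The low pools thus include control pool 3 and homozygous pool 1, which were high for Cyp17a1. Cyp21a1 differed by 2.91 ± 1.71 (SE, log2), adjusted p = 0.471, and Cyp11b1 by 3.43 ± 1.77 (SE, log2), adjusted p = 0.404, both in limma. A second Cyp21a1 probe set stayed below 50 on all arrays. Cyp21a1 has a pseudogene copy and Cyp11b1 a close relative in Cyp11b2, so that part of either signal could come from the relative. The Cyp11b2 probe set itself lay between 2.55 and 49.7.

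The regulators overlapped between genotypes as well. Nr5a1, the master regulator of the steroid-producing lineages, had intensities of 10.7, 5.97, 714, 103 and 863 in control pools 1 to 5 and 487, 1215, 1270.3, 249 and 607 in homozygous pools 1 to 5. Homozygous pools all exceeded control pools 1, 2 and 4, and control pools 3 and 5 lay within the homozygous range. Its difference was 2.55 ± 1.26 (SE, log2), adjusted p = 0.376 in limma. The second Nr5a1 probe set lay between 6.51 and 38.1 and differed by 0.09 ± 0.30. Nr0b1 (Dax1), an X-linked gene, had intensities of 33.0, 43.8, 78.8, 66.1 and 153 in control pools 1 to 5 and 74.1, 366, 309, 106 and 231 in homozygous pools 1 to 5. Homozygous pools 2, 3 and 5 lay above every control pool, and the lowest homozygous pool, pool 1, lay within the control range. Its mean log2 was 6.02 ± 0.85 (SD, n = 5) in control pools and 7.51 ± 1.00 (SD, n = 5) in homozygous pools. The difference of 1.49 ± 0.56 (SE, log2) had the smallest unadjusted p of the 10, 0.0256, which gave an adjusted p of 0.236 in limma. An unadjusted p under 0.05 with a positive difference was found in 9.83% of all genes. Mc2r, the ACTH receptor, had intensities of 222, 98.6, 278, 695 and 1686 in control pools 1 to 5 and 131, 2773, 2885, 456 and 901 in homozygous pools 1 to 5. Its order matched the final adrenal enzymes at the top (homozygous pools 2 and 3, then control pool 5), and homozygous pool 1 was low. Mc2r differed by 1.18 ± 1.03 (SE, log2), adjusted p = 0.65 in limma.

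**Figure D2:**
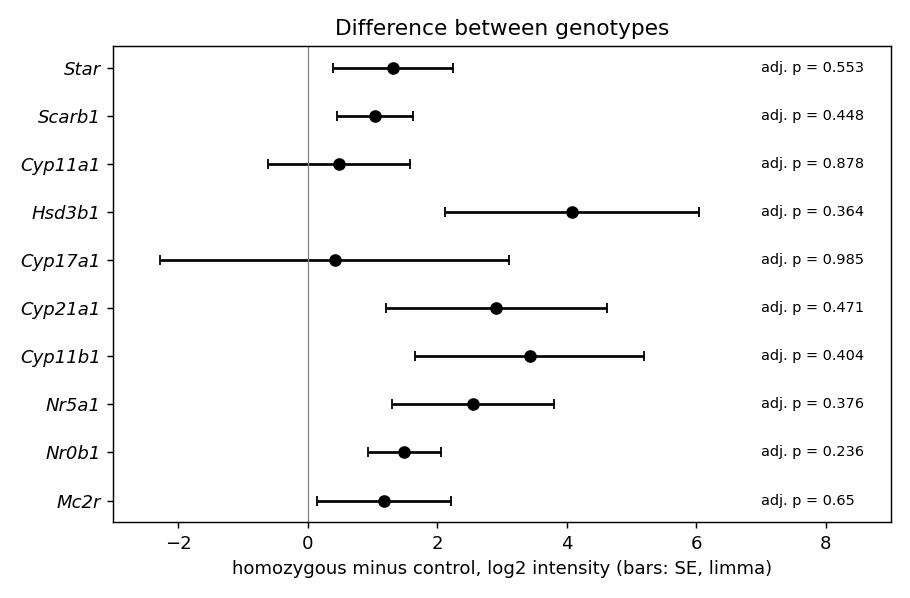
Homozygous minus control difference of each gene on the log2 scale (points) with its standard error from limma (bars) and adjusted p over all 18193 genes. All 10 points lie above 0, from 0.42 (Cyp17a1) to 4.08 (Hsd3b1), and none passed the threshold.

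Pools of the same genotype differed more for some of the 10 genes than for others. Between homozygous pools 2 and 1, both high for Cyp17a1, Cyp21a1 was 68.6-fold, Cyp11b1 39.0-fold and Mc2r 21.1-fold higher in pool 2. Star was 2.71-fold and Nr5a1 2.50-fold higher there, and Cyp17a1 only 1.52-fold. Control pools 5 and 3 showed the same contrast. Cyp21a1 was 34.6-fold, Cyp11b1 23.5-fold and Mc2r 6.05-fold higher in control pool 5, Star 1.35-fold higher, and Cyp17a1 1.42-fold higher in control pool 3. Between homozygous pools 2 and 3 the contrast was the opposite one. Cyp17a1 was at 7579 in pool 2 and at 37.4, near the floor, in pool 3, whereas Cyp21a1, Mc2r and Nr5a1 differed by 1.01-fold, 1.04-fold and 1.05-fold and Cyp11b1 by 1.21-fold. Control pool 4 had yet another combination, with Cyp21a1 at 638 and Cyp11b1 at 1414, Cyp17a1 at 3.83 and Nr5a1 at 103. These pairs of pools were chosen after their values were seen and are single arrays, so that no test applies.

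To describe how far the 10 genes moved together, each gene was centred on its mean and the pool's mean deviation over the 10 genes was removed. The pool's mean rests on the same genes, so this is a description of their sharing. The SD over the 10 pools went from 2.40 to 0.73 for Nr5a1, from 1.63 to 0.66 for Star and from 1.75 to 0.92 for Cyp11a1. It went from 3.34 to 1.68 for Cyp11b1, from 3.11 to 1.61 for Cyp21a1, from 3.78 to 1.94 for Hsd3b1 and from 1.75 to 1.17 for Mc2r. For Cyp17a1 it went from 4.28 to 3.50, so that most of its spread was its own. For Nr0b1 and Scarb1 the SD was 1.18 and 1.07 before and 1.16 and 1.19 after, since both moved less than the group. Cyp17a1 lay 4.81 above the shared level in control pool 3 and 4.70 above it in homozygous pool 1, the same pools in which Cyp21a1 lay furthest below it (-2.63 and -2.43).

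**Figure D3:**
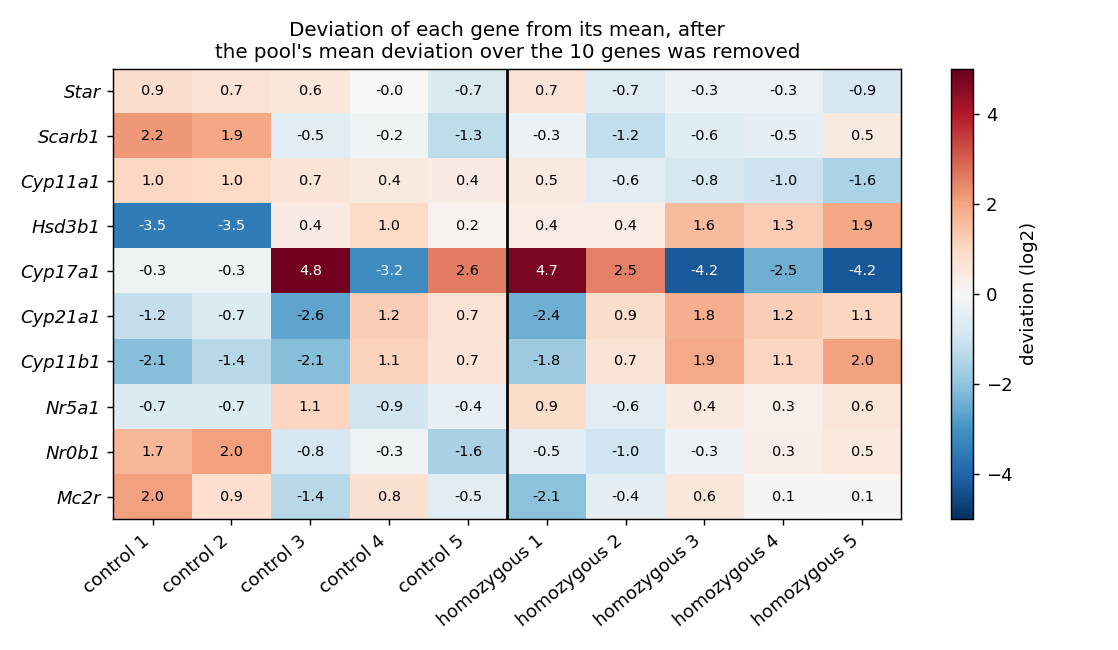
Deviation (log2) of each gene in each pool from the gene's own mean, after the pool's mean deviation over the 10 genes was removed. Control pools are left of the black line. Cyp17a1 reaches 4.81 in control pool 3 and -4.22 in homozygous pools 3 and 5, and Star and Nr5a1 stay between -0.90 and 1.06.

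Genes of other cell types were read in the same pools. Of the 10 testis genes listed, 8 were measured and 0 passed, with a median difference of 0.29. Their mean log2 was 9.01 to 9.51 in homozygous pools 1 and 2 and control pools 3 and 5, and 5.27 to 5.998 in the other 6 pools. Amh, the Sertoli cell hormone, had intensities of 3.36, 4.40, 419, 4.04 and 316 in control pools 1 to 5 and 355, 690.2, 9.03, 4.07 and 5.72 in homozygous pools 1 to 5. Cst9, another gene of the fetal testis, was at 1322 to 2416 in the pools that were high for Cyp17a1 and at 32.2 or below elsewhere. Ptgds, the brightest of the list, was at 1641 to 2874 in these pools and at 66.3 to 252 elsewhere, whereas Sox9, the Sertoli cell transcription factor, overlapped, at 222 to 521 and 137 to 297. Cyp17a1 was therefore high in the same 4 pools as Amh and Cst9, and the part of testis tissue in the Cyp17a1 level was not tested. Amh and Cst9 were named after their values were seen.

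Adrenal medulla genes differed among themselves in how their order of pools compared with that of the cortex genes. Of 14 listed, 12 were measured, 0 passed and 11 were higher in homozygous pools, with a median of 2.21. Their mean log2 ran from 6.04 to 8.18 in control pools and from 8.66 to 9.90 in homozygous pools, with no overlap. The members' mean overlapped, at 5.29 to 10.78 in control pools and 8.29 to 11.41 in homozygous pools. Th, the tyrosine hydroxylase of catecholamine cells, had intensities of 23.8, 225, 20.4, 79.5 and 386 in control pools 1 to 5 and 1888, 1116, 1699, 433 and 985 in homozygous pools 1 to 5. Homozygous pool 1 was thus the highest for Th while it was the lowest homozygous pool for Cyp21a1 and Cyp11b1. Th differed by 3.76 ± 0.87 (adjusted p = 0.0806 in limma), and it is also made by sympathetic neurons. Pnmt, which makes adrenaline in the medulla, had intensities of 152, 114, 174, 131 and 266 in control pools 1 to 5 and 65.1, 432, 473, 177 and 296 in homozygous pools 1 to 5. It was lowest in homozygous pool 1 and highest in homozygous pools 2 and 3, as Cyp21a1 and Mc2r were among homozygous pools. Its difference was 0.55 ± 0.54, adjusted p = 0.669 in limma. Chga, the chromogranin of secretory granules, was also highest in homozygous pools 2 and 3, at 1194 and 1776, and homozygous pool 1 came next at 873. The brightest medulla genes, Ddc, Hand2 and Chgb, differed by 1.648, 4.04 and 4.25, with adjusted p of 0.0991, 0.0991 and 0.112 in limma.

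**Figure D4:**
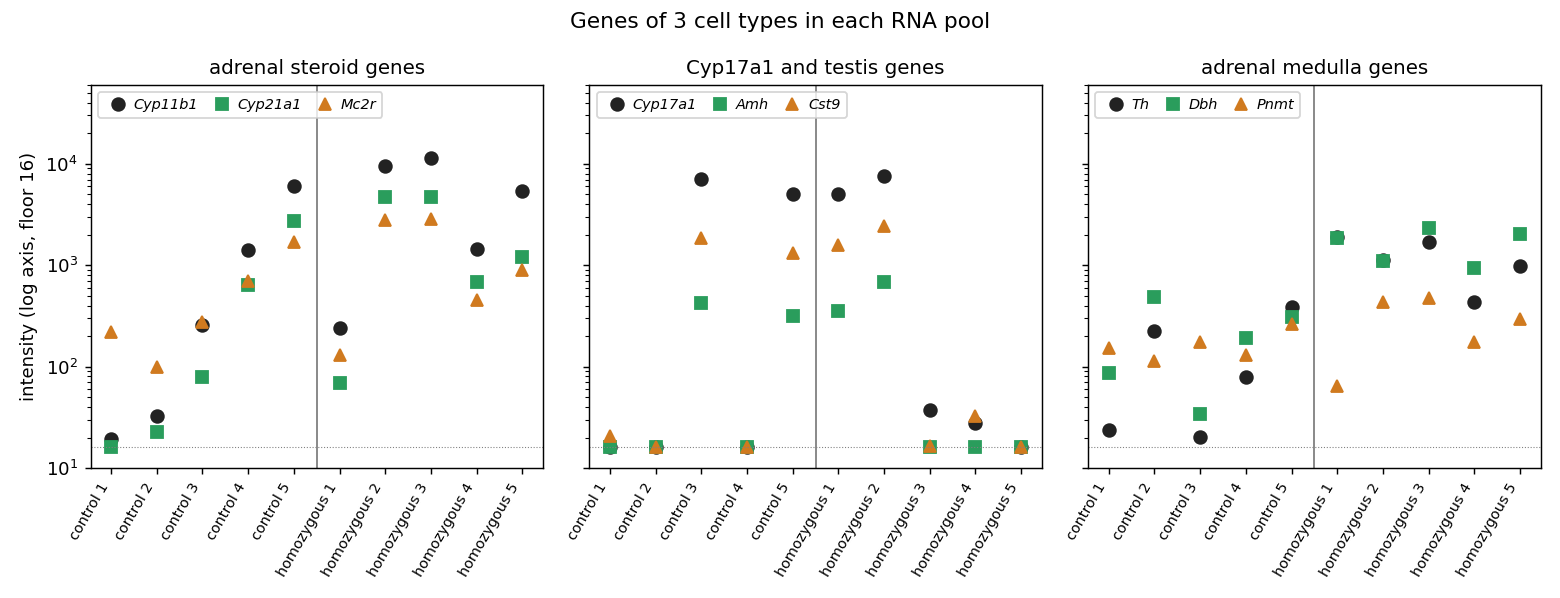
Intensity (log axis, values below 16 drawn at 16) of Cyp11b1, Cyp21a1 and Mc2r, of Cyp17a1 with the testis genes Amh and Cst9, and of the medulla genes Th, Dbh and Pnmt, in each of the 10 pools. Homozygous pool 1 and control pool 3 are low in the first panel and high in the second, and Th and Dbh are higher in every homozygous pool than in every control pool.

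Of 13 further genes of steroid synthesis listed, 7 were measured: 6 were higher and 1 lower in homozygous pools, 0 passed, and the median difference was 0.29. Mrap, the accessory protein that brings Mc2r to the cell surface, had intensities of 7.92, 3.31, 60.7, 208 and 482 in control pools 1 to 5 and 60.1, 604, 531, 162 and 298 in homozygous pools 1 to 5. It was lowest in control pools 1 and 2 and highest in homozygous pools 2 and 3, as Star was, with a difference of 1.84 ± 1.09 (adjusted p = 0.477 in limma). Fdx1, the electron donor of Cyp11a1 and Cyp11b1, had intensities of 3699, 2801, 5566, 4565 and 9439 in control pools 1 to 5 and 4389, 12494, 12998, 5087 and 9862 in homozygous pools 1 to 5. Many tissues make Fdx1, and no value was below 2801. Its highest pools were again homozygous 2, 3 and 5 and control 5. Fdx1 differed by 0.77 ± 0.42 (adjusted p = 0.432 in limma). The others in this list differed by 0.38 (Tspo), 0.29 (Lipe), 0.14 (Cyp11b2), 0.10 (Npc1) and -0.42 (Stard3). Of 10 measured cholesterol synthesis genes 0 passed, with a median of 0.01 and list means of 9.27 to 10.06 in the pools. Single genes of that list varied more than their mean: Srebf2 ran from 68.8 to 337, and Dhcr7, which was highest in homozygous pools 2 and 3 and control pool 5, from 672 to 2659.6.

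Of 12 genes of adrenal cortex development, 11 were measured and 1 passed. Gata6, a zinc finger factor of the adrenal cortex and of many other organs, had intensities of 510.1, 882, 1002, 873 and 1081 in control pools 1 to 5 and 2454, 1531, 2570.2, 2716 and 2402 in homozygous pools 1 to 5. Every homozygous pool lay above every control pool. Gata6 was higher by 1.44 ± 0.23 (SE, log2) in homozygous pools, adjusted p = 0.0364 in limma. Gata6 was not read under the alternatives given below, in which 1 to 951 genes passed. The list's median was -0.15, and its brightest genes differed by -0.15 (Tcf21), 0.88 (Dlk1) and -0.19 (Cited2), none past the threshold. Skeletal muscle genes, which mark tissue that can be carried along in dissection, were higher in homozygous pools in 8 of 8 cases, with a median of 2.17 and 0 past the threshold. Their mean log2 was 5.20 and 5.15 in control pools 1 and 3, 7.85 in control pool 2 and 8.15 to 11.41 elsewhere. Control pool 4, with the highest muscle mean, had a members' mean of 8.20, and control pool 3, with the lowest, had 9.03. The lowest members' means, 5.29 and 5.31, were in control pools 1 and 2, whose muscle means were 5.20 and 7.85. Homozygous pools 2 and 3, with members' means of 11.41 and 10.48, had muscle means of 10.70 and 10.57. The part of dissection in the members' spread was not tested.

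The genes outside the group whose profile over the 10 pools was most like that of the 10 genes were ranked by the root mean square deviation from the members' centred mean, in log2 units. For comparison the size of that mean profile itself was 1.97, which is the deviation of a gene that does not vary. The closest were Me1 (0.74), which encodes a malic enzyme, Mrap (0.78), 4930486L24Rik (0.78), Mgarp (0.99), Abcb1b (1.02), Mmd2 (1.04), Kcnk3 (1.08), Acsbg1 (1.10), Gpha2 (1.10) and Akr1cl (1.13). Me1 had intensities of 228, 121, 1309, 389.8 and 2070.1 in control pools 1 to 5 and 1396, 2817, 2579, 664 and 912 in homozygous pools 1 to 5. Its lowest pools were control 2 and 1, as for Star. Mgarp, which encodes a mitochondrial protein, had intensities of 49.8, 76.7, 134, 424 and 1531 in control pools 1 to 5 and 211, 2847, 3341, 487 and 1746 in homozygous pools 1 to 5. Mgarp was high in homozygous pools 2 and 3 and low in control pool 3, much as Cyp21a1 was. None of these 10 genes differed between genotypes past the threshold, and the lowest adjusted p among them was 0.322 (Kcnk3, limma). On the same measure Star and Nr5a1 were the closest of all genes to the mean they helped to form, at 0.63 and 0.69. Cyp11a1 was at 0.87, Nr0b1 at 1.10, Mc2r at 1.11 and Scarb1 at 1.13. Cyp21a1, Cyp11b1 and Hsd3b1 were further away, at 1.53, 1.595 and 1.84, and Cyp17a1 was at 3.32. The measure also grows with the size of a gene's changes, so the value of Hsd3b1 does not liken it to a gene that does not vary. Hsd3b1, with an SD of 3.78 over the 10 pools, was lowest in control pools 1 and 2, as the mean profile was.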

How the data were processed

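The deposited table holds 1 linear intensity for each of 45101 probe sets on 10 arrays. How the authors summarized probes and corrected background is not given in the sources used here, and the mean of the values between the lowest and highest 2% was 500 on all arrays. Scaling of this kind does not measure a change of total RNA. The series design text describes kidney mesenchyme of another Wnt9b allele, and groups follow the sample labels. The labels speak of distinct RNA pools, so p-values cover only how these pools vary. Control probe sets (64) were left out. Names came from the platform annotation (34945 probe sets with 1 gene, 932 with several, 9160 unnamed here). Values below 16 were set to 16, log2 was taken, and each gene was read at its brightest probe set. Other probe sets were read from a fit over all 45037, where 0.231% passed and 0 of 18 of these genes did. The test between genotypes was limma 3.58.1 under R 4.3.3 (intensity trend, two-sided, Benjamini-Hochberg adjusted p under 0.05), checked on simulated data. There it recovered 44 of 100 changes of 1 (log2) and 73 of 100 changes of 2 (log2). Of its 132 calls 15 were false, so it missed many changes and a gene that did not pass may still differ. The number of arrays limits the precision.

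The members and lists were chosen with earlier results of these data known. Of 111 list entries in 12 lists, 92 matched a named gene. The rule was to name the 10 members, the measured genes of the further steroid list and the 10 closest profiles. From each other list it took genes past the threshold or among the 3 brightest. It was not followed in full. The brightest cholesterol synthesis, skeletal muscle, bladder lining and Y-linked genes were not named, nor were Slc12a1, Ret and Dhh. Th, Dbh, Pnmt, Chga, Amh, Cst9, Cited1, Srebf2, Dhcr7, Fst, Foxl2 and Pou5f1 fall outside this rule and were named after their values were seen. No 2 arrays held identical values. Promoter sequences are from RefSeq (GRCm38.p6). Alternatives concerned the probe set, the floor, the normalization, dim genes, the replicate block, the variance model, array weights, Xist, the actin ratio and single pools.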

Additional observations from a re-analysis of the deposited data

Results flagged for a closer look

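Gaps between pools were read on log2 values after the floor of 16. Among 36 sets of 5 pools, 1 for each probe set and genotype, 2 had a pool whose gap to its nearest neighbour was over 0.71 of the whole range. Both were dim probe sets of Cyp11a1. The first read 11.9 in control pool 3, against 26.2 in the next lowest control pool. The second read 20.0 in control pool 1, the array with a high actin ratio, and 15.8 or less in the other control pools. The floor set those other pools to the same value, so this flag comes from the floor. Chance alone gives about 1 such set in 20 where no values are tied at the floor. No brightest probe set of the 10 genes had such a pool.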

How the results depend on the processing

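None of the 10 genes passed the threshold under any of the 23 alternatives, and their median difference stayed positive, between 0.76 (array weights) and 2.09 (Xist as a covariate), and between 1.09 and 1.84 when a single pool was left out. It was 2.03 without the 3 pools of high Xist and 1.13 without the 2 arrays of high actin ratio. The differences of 8 genes kept their sign in every alternative that measured them. Cyp11a1 and Cyp17a1 did not: with array weights they were -0.45 and -1.07, and with single pools left out they ran from -0.043 to 1.18 and from -0.85 to 1.76; the cause was not tested. Leaving out the dimmest 40% of genes removed Cyp11a1 and Nr0b1. The count over all genes, 176, moved far more: 109 with the mean of all probe sets, 104 probe sets tested separately, 94 with a floor of 32, 291 with 50 added, 283 without dim genes, 951 with array weights, 13 with Xist as a covariate, 28 without the pools of high Xist and 23 without the arrays of high actin ratio. Leaving out homozygous pool 1, 2, 3, 4 or 5 gave 11, 250, 3, 67 or 13 genes, and leaving out control pool 1, 2, 3, 4 or 5 gave 13, 414, 3, 10 or 5. With the replicate number as a block 1 gene passed, the members' median was 1.41 and none of them passed. Deviations of same-numbered pools over all genes correlated at -0.17 to -0.55, and 0 of 10 pools matched its own number best. Same-numbered pools were thus not alike on this measure. Whether the numbers mark a pairing that it does not show was not tested. Signals at or near the floor limit Cyp11a1, Hsd3b1, Cyp17a1, Cyp21a1, Cyp11b1 and Nr5a1 in their lowest pools.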

Other observations

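Germ cell genes, which mark gonads of either sex, were read beside the steroid genes, and 0 of the 4 measured genes passed between genotypes. Ddx4, an RNA helicase of germ cells, had intensities of 48.3, 24.5, 759, 32.3 and 979.8 in control pools 1 to 5 and 564, 585, 54.8, 278 and 301 in homozygous pools 1 to 5. Dazl, a germ cell RNA-binding protein gene, had intensities of 1.19, 10.8, 644, 0.919 and 797 in control pools 1 to 5 and 375, 429, 2.84, 409 and 372 in homozygous pools 1 to 5. Both were high in the 4 pools with high Cyp17a1 and in homozygous pools 4 and 5, where Cyp17a1 was at 27.7 and 6.75. The other measured genes of the list were not high in homozygous pools 4 and 5. Dnd1 was at 78.1 and 70.5 there, at 206 to 479 in the 4 pools and at 113 in homozygous pool 3. Pou5f1 was at 23.3 and 10.5 there and at 34.7 at most in any pool. In homozygous pool 3 Dazl was below the floor while Hsd3b1 and Cyp11b1 had their highest values of all pools. In control pools 1, 2 and 4 Dazl was below the floor as well, and these pools differed for Cyp21a1 (7.03, 22.9 and 638).

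Of 5 ovary genes 0 passed, and their mean log2 lay between 8.43 and 9.30 in the 10 pools, while single genes varied more. Fst, which encodes follistatin, was at 77.5 and 83.1 in control pools 1 and 3 and at 383 to 828.8 in the other pools. Foxl2, an ovarian transcription factor, was highest in homozygous pools 4 and 5, at 209.7 and 225. Between genotypes Fst and Foxl2 differed by 1.39 and 0.54. The other 3, which were the brightest of the list, went the other way, at -0.40 (Irx3), -0.32 (Rspo1) and -0.80 (Bmp2). Bladder lining genes ranged from 7.03 to 9.32 in mean log2, with 0 of 5 past the threshold. Kidney genes were lower in homozygous pools in 8 of 9 cases, with a median of -1.12, and Lrp2 and Cubn passed.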
